A study of Mus musculus with 8 samples.

Results

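Transcript levels of 70 transporter genes, out of 19938 genes measured, were compared between serrated and chemically induced colonic tumors of mice. The 70 genes were every measured gene of the Slc2a, Slc5a, Slc10a, Slc15a, Slc22a, Slc27a, Slc28a and Slc29a families with a numbered symbol, together with Slc51a and Slc51b, and Slc2a1 was left out by the same rule. They move sugars and other small solutes, bile acids, peptides, organic ions, fatty acids and nucleosides. Each tumor was measured on 1 Affymetrix array, and a level here is the deposited log2 signal, on which a difference of 1 is a 2-fold change.

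The serrated group held 3 tumors of the proximal colon labelled K-rasG12Dint with Ink4a/Arf-/-. The K-rasG12D AOM group held 3 tumors of the distal colon labelled K-rasG12Dint and AOM induced, AOM being the colon carcinogen azoxymethane. The LSL AOM group held 2 AOM-induced tumors of the distal colon labelled LSL-K-rasG12D/+, in which a lox-stop-lox cassette precedes the mutant allele. Every group thus carries a K-rasG12D allele by its label, and the titles of the LSL tumors hold the letters wt. The labels name no recombinase, driver, age or strain, and they do not say whether the tumors of a group came from separate animals, so a p-value here covers only the spread among these arrays, which may be technical. Ink4a/Arf genotype, segment of the colon, AOM and tumor type cannot be told apart in any comparison with the serrated group, and no normal colon was measured. The K-ras label also differs between serrated and LSL AOM tumors. It cannot be told apart from the others in the comparisons with LSL AOM tumors and with the mean of both AOM groups.

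Epithelia absorb most solutes with paired transporters. A carrier on the luminal side takes the solute up, often driven by the sodium or proton gradient, and a second carrier on the blood side lets it out. Glucose, peptides, bile acids and nucleosides are taken up mainly in the small intestine, whereas the colon takes up short-chain fatty acids such as butyrate made by bacteria. In bulk tissue, fewer cells of a type and less RNA per cell cannot be told apart.

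The epithelial markers Epcam, Cdh1, Krt8 and Vil1 stood between 8.58 and 12.1 on all 8 arrays, and 0 of these 4 passed the test in any comparison. Serrated replicate 1 stood apart, with a standard deviation (SD) over genes of 1.77, against 2.01 and 2.13 on the other serrated arrays, 2.02 to 2.13 on the K-rasG12D AOM arrays and 2.00 to 2.12 on the LSL AOM arrays. Its cell type markers differed too. The mean of the gastric surface markers was 7.46 on serrated replicate 1, against 11.3 and 10.9 on replicates 2 and 3. That of the small-intestinal enterocyte markers was 7.45, against 6.92 and 6.03, and that of the colonocyte markers 10.3, against 10.3 and 9.74. Whether cell content or signal quality sets this array apart was not tested. Of the transporters, 44 had a mean level below that of the median gene. Serrated replicate 1 was the highest of the 8 arrays for 24 of these 44, or 54.5%, and for 49.8% of all genes as dim. For some named genes that this array moves by over 1.5 times, ends or turns, results are also given without it. For others, among them Slc2a2, Slc2a9, Slc5a1, Slc15a4, Slc28a3 and Fgf15, they are given only with it. The part of serrated replicate 1 in the small differences of dim transporters was not tested.

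Serrated tumors had more of 10 transporters and less of 1 than the AOM tumors. The largest rises were those of Slc10a5, an orphan member of the bile acid cotransporter family, of Slc5a8, the sodium-coupled carrier of butyrate and lactate, and of Slc51a, the alpha subunit of the bile acid exporter of the basolateral membrane. In the organic ion family Slc22a4, Slc22a5, Slc22a18, Slc22a21 and Slc22a23 rose. The inositol carrier Slc2a13 and the fatty acid transport protein Slc27a6 rose as well, and the fatty acid transport protein Slc27a1 fell. The comparison set serrated tumors against the mean of both AOM groups, in 1 limma fit to all 8 arrays, and 0.05 was the threshold for a p-value adjusted over all 19938 genes after Benjamini and Hochberg.

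The 10 that rose were 14.3% of the 70 members, against 3.62% of all genes, and the 1 that fell was 1.43%, against 5.76% of all genes. In both directions 9.38% of all genes passed. An unadjusted p under 0.05 was found for 23 of the 70 members, and for 4933 of the 19938 genes (24.7%). The median log2 difference was 0.233 over the 70 members and 0.0425 over all genes. Without serrated replicate 1 the medians were 0.149 and 0.00309, and 10 members rose and 1 fell, with Slc2a13 no longer among the risen and Slc22a15 added. All 3 serrated arrays lay above all 5 AOM arrays for 13 of the 70 members, while 7.24% of all genes did so. They lay below them for 2 of the 70, against 8.93% of all genes. The number of members called was 5 without serrated replicate 2 or without LSL replicate 1, where 643 and 797 of all genes passed. It was 19 without serrated replicate 3, where 3874 of all genes passed. There Slc15a1, Slc15a3, Slc22a7, Slc27a2, Slc27a5, Slc28a2, Slc29a1, Slc29a3 and Slc51b were added and Slc22a18 was lost. The number was 7 without any single K-rasG12D AOM array (1037, 1014 and 1350 of all genes) or without LSL replicate 2 (895). In the full fit 1871 of all genes passed. Among the 281 other measured Slc genes 29 rose (10.3%) and 23 fell (8.19%), with a median log2 difference of 0.150. Among 60 amino acid transporters 2 rose and 3 fell, and among 48 ABC transporters 5 rose and 3 fell, and whether the members differ from these was not tested.

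**Figure D1:**
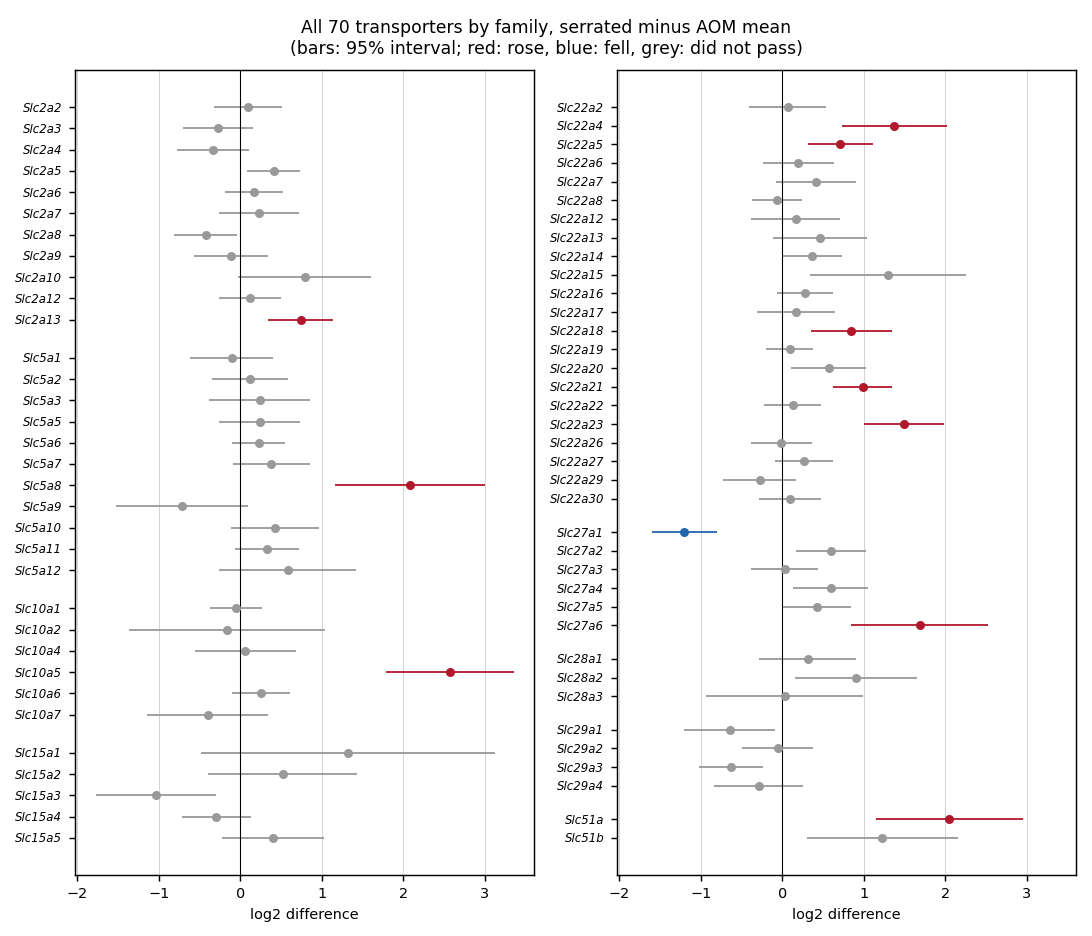
Log2 difference (horizontal axis) of each of the 70 transporters, grouped by family, for serrated tumors minus the mean of the AOM groups, with 95% intervals from the limma fit. Slc10a5, Slc5a8 and Slc51a lie farthest to the right, at 2.57, 2.08 and 2.05, and Slc27a1 is the only member that passed on the left, at -1.20.

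Bile acids are reclaimed in the ileum by Slc10a2, the apical sodium-dependent uptake carrier, and handed to the blood by the Slc51a and Slc51b pair, which works only as a dimer. The start regions of both subunits are shown side by side. Whether the subunits differ in their change, or whether these letters bear on it, was not tested. The sequences come from RefSeq, build GRCm38.p6, run 5′ to 3′ from 250 bases before to 50 bases after the gene start, and capitals mark the HNF4 letters CAAAGTC on either strand. Slc51a lies at chr16:32487830-32488129, minus strand, and Slc51b at chr9:65422724-65423023, minus strand.
Slc51a: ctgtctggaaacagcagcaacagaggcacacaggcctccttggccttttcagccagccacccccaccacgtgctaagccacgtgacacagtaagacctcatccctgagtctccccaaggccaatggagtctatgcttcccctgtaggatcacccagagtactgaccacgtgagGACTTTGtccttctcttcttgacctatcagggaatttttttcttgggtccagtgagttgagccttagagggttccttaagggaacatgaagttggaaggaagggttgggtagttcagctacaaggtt
Slc51b: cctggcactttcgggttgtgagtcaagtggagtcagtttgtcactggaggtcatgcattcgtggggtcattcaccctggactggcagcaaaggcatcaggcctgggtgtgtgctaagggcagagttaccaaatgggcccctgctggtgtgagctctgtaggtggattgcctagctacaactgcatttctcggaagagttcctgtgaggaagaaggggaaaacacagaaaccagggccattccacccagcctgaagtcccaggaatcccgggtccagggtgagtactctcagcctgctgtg
The Slc51a window held these letters once, 77 bases before the start, and the Slc51b window did not hold them. Among all 32851 such windows 4.44% did.

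Slc51a stood at 3.41, 5.51 and 4.86 in serrated tumors, at 2.57, 2.43 and 2.60 in K-rasG12D AOM tumors and at 2.57 and 2.54 in LSL AOM tumors. All serrated arrays lay above all AOM arrays, with replicate 1 the lowest of them. The log2 difference was 2.05 ± 0.40 (standard error, SE; limma adjusted p = 0.0160), and 2.64 without serrated replicate 1 (adjusted p = 0.000222). Leaving out serrated replicate 2, LSL replicate 1 or LSL replicate 2 ended the call, at adjusted p of 0.0549 to 0.0582. All 5 AOM levels were below the level of the median gene. Slc51b, the beta subunit, stood at 5.60, 5.34 and 4.19 in serrated tumors, at 3.92, 3.36 and 4.70 in K-rasG12D AOM tumors and at 4.09 and 3.18 in LSL AOM tumors. Serrated replicate 3 lay among the AOM arrays, and the difference of 1.23 ± 0.41 did not pass (limma adjusted p = 0.0971). Without serrated replicate 3 it passed, at 1.66 (limma adjusted p = 0.0181), so single arrays decided the calls of both subunits.

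Slc10a5 was the member with the largest difference. Its level was 4.52, 5.77 and 5.81 in serrated tumors, 2.27, 2.51 and 3.01 in K-rasG12D AOM tumors and 3.39 and 2.60 in LSL AOM tumors. The groups did not overlap. The difference was 2.57 ± 0.34 (limma adjusted p = 0.00335), and 2.99 without serrated replicate 1. The call held under all 15 alternatives run for it (adjusted p of at most 0.0218).

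Slc10a2 itself stood at 3.47, 5.97 and 5.15 in serrated tumors, at 5.54, 5.75 and 4.72 in K-rasG12D AOM tumors and at 5.21 and 4.21 in LSL AOM tumors. Its groups overlapped, with serrated arrays at both ends of the range, and the difference was -0.16 with a 95% interval from -1.36 to 1.04 (limma adjusted p = 0.873). Without serrated replicate 1, the lowest of the 8 arrays, the difference turned to 0.54 (limma adjusted p = 0.477), so it has no settled direction. The other 4 members of the family, among them the hepatocyte carrier Slc10a1, had differences from -0.40 for Slc10a7 to 0.25 for Slc10a6 and did not pass. Slc10a7, the member with the highest mean signal in this family, stood at 4.30, 5.42 and 5.91 in serrated, 5.19, 5.51 and 5.27 in K-rasG12D AOM and 6.12 and 5.69 in LSL AOM tumors. Its difference was 0.05 without serrated replicate 1.

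Of 11 measured genes listed for bile acid sensing and handling, 5 rose and 1 fell in serrated tumors. The 5 include Gata4, a transcription factor rather than a bile acid receptor or carrier. Over all genes 3.62% rose and 5.76% fell, to be set beside every list and family count of this comparison. The lists were chosen with earlier results of these data known, and whether a list differs from all genes was not tested. The nuclear bile acid receptor Nr1h4 (FXR), a known activator of the Slc51 genes, stood at 6.15, 6.26 and 6.47 in serrated, 4.78, 4.26 and 5.05 in K-rasG12D AOM and 4.12 and 4.41 in LSL AOM tumors. It rose by 1.81 ± 0.20 (limma adjusted p = 0.00150), and its groups did not overlap. Vdr, the vitamin D receptor, which also binds a secondary bile acid, rose by 2.10 ± 0.21 (limma adjusted p = 0.000917). Abcc2, an apical exporter of organic anion conjugates, stood at 3.74, 2.98 and 2.92 in serrated tumors, against 7.31, 7.84 and 5.19 in K-rasG12D AOM and 6.25 and 6.54 in LSL AOM tumors. It fell by 3.37 ± 0.53 on the log2 scale (limma adjusted p = 0.00680). The ileal FXR targets Fgf15 and Fabp6 differed by 0.16 and 0.02, with adjusted p of 0.683 and 0.950 in limma, and their groups overlapped.

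**Figure D2:**
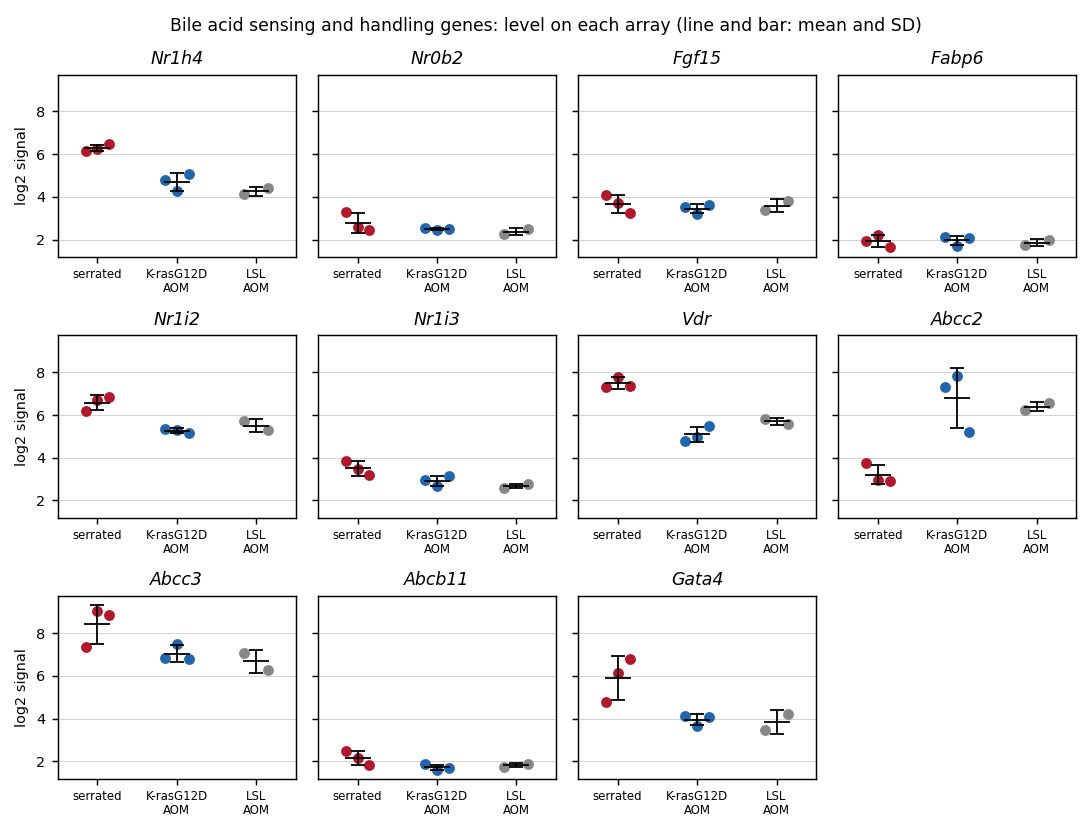
Log2 signal (vertical axis) of 11 genes listed for bile acid sensing and handling, the transcription factor Gata4 among them, on each array. Arrays are shown by group, with the group mean and SD as line and bar. Nr1h4 and Vdr lie higher and Abcc2 lower on all 3 serrated arrays than on the AOM arrays, while Fgf15 and Fabp6 overlap.

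Slc5a8 takes up butyrate and other monocarboxylates at the luminal face of colonocytes, and in human colon cancers its promoter is known to be methylated. Its start region is shown with each CpG in capitals, as no methylation was measured here. It lies at chr10:88885742-88886041, plus strand (RefSeq, GRCm38.p6).
Slc5a8: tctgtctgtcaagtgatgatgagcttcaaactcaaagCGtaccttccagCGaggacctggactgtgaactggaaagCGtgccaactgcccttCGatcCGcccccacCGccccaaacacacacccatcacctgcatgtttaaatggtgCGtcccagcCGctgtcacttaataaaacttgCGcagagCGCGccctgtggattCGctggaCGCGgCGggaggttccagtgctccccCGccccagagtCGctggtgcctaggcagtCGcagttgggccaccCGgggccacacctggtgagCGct
The window held 20 CpG, and 26.5% of all windows held as many or more.

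Slc5a8 stood at 8.22, 7.94 and 7.93 in serrated tumors, at 5.72, 4.85 and 6.85 in K-rasG12D AOM tumors and at 5.65 and 6.52 in LSL AOM tumors. The serrated arrays lay close together and above all AOM arrays, which were spread widely. The difference was 2.08 ± 0.41 (limma adjusted p = 0.0162), and 1.99 without serrated replicate 1 (adjusted p = 0.0368). The call was lost when serrated replicate 2 or LSL replicate 1 was left out (adjusted p of 0.0654 and 0.0678). The colonocyte markers moved the same way: 5 of 6 rose, and their mean level was 9.74 to 10.3 in serrated, 6.03 to 8.80 in K-rasG12D AOM and 7.05 to 7.35 in LSL AOM tumors. Their part in the Slc5a8 difference was not tested.

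Of 9 measured genes of monocarboxylate and butyrate use, 2 rose and 1 fell. Slc16a1, the proton-coupled carrier of the same acids, rose by 1.04 ± 0.26 (limma adjusted p = 0.0403), and the butyrate-activating enzyme Acsm3 by 1.49 ± 0.34 (0.0280). Slc16a3, the lactate exporter of glycolytic cells, fell by 1.17 ± 0.17 on the log2 scale (limma adjusted p = 0.00463).

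The other 10 members of the Slc5a family did not pass. Slc5a1, the sodium-glucose cotransporter of the brush border, stood at 5.94, 6.51 and 5.96 in serrated tumors, at 5.39, 5.85 and 5.52 in K-rasG12D AOM tumors and at 7.24 and 6.54 in LSL AOM tumors. The serrated arrays lay between both AOM groups, and the difference from their mean was -0.11 with a 95% interval from -0.61 to 0.40. Slc5a6, the vitamin carrier for biotin and pantothenate, differed by 0.22 ± 0.14 (limma adjusted p = 0.364). The others ran from -0.71 for Slc5a9, which was -0.43 without serrated replicate 1, to 0.58 for Slc5a12. Slc5a12 read 3.75 on serrated replicate 1 and 1.88 to 2.14 on the other 7 arrays, and its difference was 0.01 without that array.

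Among the facilitative sugar carriers, 1 of 11 rose and 10 did not pass. Slc2a13, which carries myo-inositol with protons, stood at 5.29, 5.16 and 5.21 in serrated tumors, at 4.42, 4.14 and 4.51 in K-rasG12D AOM tumors and at 4.89 and 4.32 in LSL AOM tumors. The groups did not overlap. The difference was 0.74 ± 0.18 (limma adjusted p = 0.0332) but did not pass without serrated replicate 1 or 2, any single K-rasG12D AOM array or LSL replicate 2 (adjusted p of 0.0525 to 0.108).

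The intestinal fructose carrier Slc2a5 stood at 3.08, 3.04 and 2.97 in serrated tumors, at 2.80, 2.50 and 2.57 in K-rasG12D AOM tumors and at 2.72 and 2.52 in LSL AOM tumors. All serrated arrays lay above the AOM arrays, and the difference of 0.41 ± 0.14 did not pass (limma adjusted p = 0.113). Slc2a2, the basolateral carrier of enterocytes and liver, differed by 0.09, with a 95% interval from -0.33 to 0.51. Slc2a9, a urate carrier and the member with the highest mean signal of this family, differed by -0.11 (limma adjusted p = 0.761). Of 9 measured genes of sugar digestion and fructose handling 2 rose, the disaccharidase Sis by 1.77 ± 0.35 (limma adjusted p = 0.0175) and the glucose-responsive Txnip by 1.21 ± 0.27 (0.0280).

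Of the 5 peptide transporters 0 passed, and 1 had an unadjusted p under 0.05, Slc15a3. Slc15a1, the brush border carrier of di- and tripeptides, stood at 7.11, 5.98 and 3.70 in serrated tumors, at 4.75, 2.88 and 5.37 in K-rasG12D AOM tumors and at 3.66 and 4.77 in LSL AOM tumors. Serrated replicates 1 and 2 lay above all AOM arrays and replicate 3 among them, and the difference was 1.32 with a 95% interval from -0.48 to 3.12 (limma adjusted p = 0.340). The difference was 0.56 without serrated replicate 1 (limma adjusted p = 0.766), and 2.27 without serrated replicate 3, where it passed (0.0415).

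Slc15a3, a lysosomal carrier of histidine and peptides known from immune cells, stood at 4.87, 4.24 and 5.18 in serrated, 5.15, 6.52 and 5.93 in K-rasG12D AOM and 5.93 and 5.52 in LSL AOM tumors. The difference was -1.03 ± 0.33 (limma adjusted p = 0.0829). Macrophage markers were also lower, with 4 of 5 falling and a mean level of 4.81 to 5.66 in serrated, 6.01 to 6.60 in K-rasG12D AOM and 6.19 to 6.98 in LSL AOM tumors, and their part in this difference was not tested. Slc15a4, its close relative, differed by -0.29 (limma adjusted p = 0.367). Of 11 measured peptide-digesting enzymes 4 rose and 0 fell, among them the metalloproteases Mep1a, by 4.02 ± 0.45 (limma adjusted p = 0.00143), and Mep1b, by 2.21 ± 0.45 (0.0186).

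Of the 22 organic ion transporters 5 rose (22.7%, against 3.62% of all genes), 0 fell (against 5.76% of all genes) and 17 did not pass. Slc22a5, the carnitine carrier, Slc22a21, a carnitine carrier of the mouse, and Slc22a4, which carries ergothioneine, are neighbours on chromosome 11 in the RefSeq annotation GRCm38.p6, with no other protein-coding gene starting between them. All 3 rose. Of 70 members 14 lay in 5 such runs of adjacent members, and the other 4 runs, on chromosomes 19, 4 and 9, held 11 members with no call. The start regions of Slc22a4 and Slc22a5 are shown to compare their CpG content, with each CpG in capitals. They lie at chr11:54028055-54028354, minus strand, and at chr11:53891654-53891953, minus strand (RefSeq, GRCm38.p6).
Slc22a4: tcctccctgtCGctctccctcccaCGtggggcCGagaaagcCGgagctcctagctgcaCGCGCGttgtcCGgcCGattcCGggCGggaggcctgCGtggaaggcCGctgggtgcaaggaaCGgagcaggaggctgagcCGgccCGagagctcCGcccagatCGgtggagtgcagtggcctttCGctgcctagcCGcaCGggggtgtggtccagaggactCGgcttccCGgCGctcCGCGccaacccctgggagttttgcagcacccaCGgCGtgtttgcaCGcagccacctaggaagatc
Slc22a5: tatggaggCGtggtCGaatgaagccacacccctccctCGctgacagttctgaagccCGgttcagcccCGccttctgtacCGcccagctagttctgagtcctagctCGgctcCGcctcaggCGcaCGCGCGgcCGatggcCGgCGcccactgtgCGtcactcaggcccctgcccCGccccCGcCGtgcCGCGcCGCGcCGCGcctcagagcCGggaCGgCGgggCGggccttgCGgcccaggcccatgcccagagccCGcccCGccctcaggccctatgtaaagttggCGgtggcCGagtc
They held 29 and 34 CpG, and 12.9% and 7.73% of all windows held as many or more, with a median over all windows of 7. The table held 1 window for each of 7 of the 10 members that rose. In these, the CDX letters TTTATG, the HNF1 half-site letters GTTAAT, the TCF/LEF letters ATCAAAG and the TATA box letters TATAAA, on either strand, were found in 0 of 7, against 11.9%, 7.10%, 3.73% and 13.6% of all windows. The HNF4 letters were found in 1 of 7, that of Slc51a.

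Slc22a4 stood at 4.32, 5.41 and 5.53 in serrated tumors, at 3.70, 3.94 and 3.60 in K-rasG12D AOM tumors and at 3.43 and 3.92 in LSL AOM tumors. Slc22a21 stood at 5.18, 5.31 and 5.15 in serrated tumors, at 4.18, 4.46 and 4.03 in K-rasG12D AOM tumors and at 4.39 and 4.07 in LSL AOM tumors. Slc22a5 stood at 5.13, 5.44 and 5.30 in serrated tumors, at 4.60, 4.44 and 4.19 in K-rasG12D AOM tumors and at 4.98 and 4.51 in LSL AOM tumors. In all 3 genes every serrated array lay above every AOM array, by the narrowest margin in Slc22a5.

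The differences were 1.38 ± 0.28 for Slc22a4 (limma adjusted p = 0.0208), 0.99 ± 0.16 for Slc22a21 (0.00768) and 0.71 ± 0.17 for Slc22a5 (0.0371). Without serrated replicate 1 all 3 still passed, with 1.76 for Slc22a4 and 0.79 for Slc22a5. The Slc22a21 call held under all 15 alternatives run for it. The Slc22a4 call ended when serrated replicate 2, K-rasG12D replicate 1 or LSL replicate 1 was dropped (adjusted p of 0.0502 to 0.0998). Slc22a5 did not pass without any single array other than serrated replicates 1 and 3, or with the trend and robust options (0.0522 to 0.157). These genes are close paralogs, and how far their probe sets tell them apart was not tested. Of 6 measured carnitine shuttle genes, 1 rose, the mitochondrial carnitine-acylcarnitine carrier Slc25a20, by 1.04 ± 0.15 (limma adjusted p = 0.00414).

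Slc22a23, an orphan member, stood at 6.97, 7.91 and 7.51 in serrated tumors, at 5.78, 6.11 and 5.90 in K-rasG12D AOM tumors and at 5.95 and 6.08 in LSL AOM tumors. The groups did not overlap, and the difference of 1.49 ± 0.22 (limma adjusted p = 0.00474) held under all 15 alternatives run for it. Slc22a18, an imprinted gene, stood at 6.09, 7.03 and 6.88 in serrated tumors, at 5.56, 5.33 and 5.44 in K-rasG12D AOM tumors and at 6.12 and 6.25 in LSL AOM tumors. Serrated replicate 1 lay just below both LSL arrays. The difference was 0.85 ± 0.22 (limma adjusted p = 0.0465), and it passed without serrated replicate 1 at 1.14 (0.00233) but not without any other single array, with the trend and robust options or with all AOM arrays as 1 group (0.0506 to 0.188).

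Slc22a15 had the largest difference among organic ion transporters that did not pass. It stood at 3.84, 5.97 and 5.61 in serrated tumors, at 3.72, 3.96 and 4.04 in K-rasG12D AOM tumors and at 3.85 and 3.70 in LSL AOM tumors. Serrated replicates 2 and 3 lay far above the AOM arrays and replicate 1 among them. The difference was 1.30 ± 0.42 (limma adjusted p = 0.0926), and it passed without serrated replicate 1, at 1.95 (adjusted p = 0.000466). The other 16, which include the kidney and liver carriers Slc22a2, Slc22a6, Slc22a7, Slc22a8 and Slc22a12, had differences from -0.28 to 0.57.

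The fatty acid transport proteins, which couple uptake to activation by coenzyme A, changed in both directions, with 1 of 6 rising, 1 falling and 4 not passing. Slc27a1, known from muscle and fat, stood at 5.08, 4.77 and 5.03 in serrated tumors, at 5.79, 6.15 and 6.17 in K-rasG12D AOM tumors and at 6.52 and 6.06 in LSL AOM tumors. All serrated arrays lay below all AOM arrays. It fell by 1.20 ± 0.18 on the log2 scale (limma adjusted p = 0.00498), a call that held under all 15 alternatives run for it. The adipocyte markers Adipoq, Plin1 and Lep stood at 1.63 to 3.93 on the 8 arrays, and 0 of these 3 passed, nor did any of the 6 smooth muscle markers. Of those 6, 5 had differences above 0. Some other stromal markers moved with Slc27a1. Of 5 fibroblast markers 2 fell, the collagens Col1a1, by 1.47 ± 0.29 on the log2 scale (limma adjusted p = 0.0161), and Col3a1, by 1.42 ± 0.31 (0.0247). Dcn, Pdgfra and Lum did not pass, with differences of -1.34, -0.92 and 0.24. The mean level of the 5 was 6.26 to 7.50 in serrated, 7.54 to 8.04 in K-rasG12D AOM and 7.27 to 8.46 in LSL AOM tumors. The 4 of 5 macrophage markers that fell also moved with it, and the part of these cells in the Slc27a1 difference was not tested.

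Slc27a6, in humans a protein of the heart, stood at 2.75, 4.51 and 4.40 in serrated tumors, at 2.42, 2.30 and 2.42 in K-rasG12D AOM tumors and at 1.91 and 2.13 in LSL AOM tumors. Serrated replicates 2 and 3 lay well above the AOM arrays and replicate 1 only just. The difference was 1.69 ± 0.37 (limma adjusted p = 0.0252), and 2.25 without serrated replicate 1. It did not pass after quantile normalization or without any single array other than serrated replicates 1 and 3 (adjusted p of 0.0508 to 0.112).

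Slc27a4, the main fatty acid transport protein of the small intestine, stood at 5.95, 6.57 and 6.25 in serrated tumors, at 5.06, 5.70 and 5.42 in K-rasG12D AOM tumors and at 6.03 and 5.84 in LSL AOM tumors. The serrated arrays overlapped the LSL arrays, and the difference of 0.60 ± 0.20 did not pass (limma adjusted p = 0.105), though it did after quantile normalization. Slc27a2, a very long-chain acyl-CoA synthetase, also differed by 0.60 (limma adjusted p = 0.0863). Of 11 measured partners of fatty acid uptake and packaging, 5 rose and 1 fell, with Fabp2 at 5.96 ± 0.32 (limma adjusted p = 5.21e-05) and Apob at 4.14 ± 0.35 (0.000537). Of the 9 measured small-intestinal enterocyte markers 5 rose, and their mean level was 6.03 to 7.45 in serrated, 3.62 to 3.96 in K-rasG12D AOM and 3.75 to 3.81 in LSL AOM tumors, whose part in the transporter differences was not tested.

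Of the 7 nucleoside transporters 0 passed, and 3 had an unadjusted p under 0.05. The concentrative carrier of purine nucleosides, Slc28a2, stood at 4.56, 3.24 and 2.91 in serrated tumors, at 2.70, 2.69 and 2.86 in K-rasG12D AOM tumors and at 2.50 and 2.66 in LSL AOM tumors. All serrated arrays lay above the AOM arrays, replicate 1 by far, and the difference was 0.91 ± 0.33 (limma adjusted p = 0.129). It was 0.41 without serrated replicate 1 (limma adjusted p = 0.144), and 1.23 without serrated replicate 3, where it passed (0.0277). Slc28a1 and Slc28a3 differed by 0.31 and 0.03, and Slc28a1 by 0.09 without serrated replicate 1.

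The equilibrative carriers had differences below 0 in 4 of 4 genes. Slc29a3, of the lysosome, stood at 5.36, 5.54 and 5.64 in serrated tumors, at 6.06, 6.31 and 6.20 in K-rasG12D AOM tumors and at 6.39 and 5.82 in LSL AOM tumors. All serrated arrays lay below all AOM arrays, and the difference of -0.63 ± 0.17 did not pass (limma adjusted p = 0.0546). It did pass with either kind of array weights. It also passed without dim genes, after quantile normalization, with all AOM arrays as 1 group, without serrated replicate 3 and without LSL replicate 2 (limma adjusted p of 0.0398 to 0.0489). Slc29a1, the main carrier of the plasma membrane, differed by -0.65 ± 0.25 (limma adjusted p = 0.146). Of 11 nucleoside-metabolizing enzymes 1 rose, the cytidine deaminase Cda, by 1.36 ± 0.33 (limma adjusted p = 0.0360), and 1 fell, the kinase Uck2, by 1.26 ± 0.33 on the log2 scale (0.0446).

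**Figure D3:**
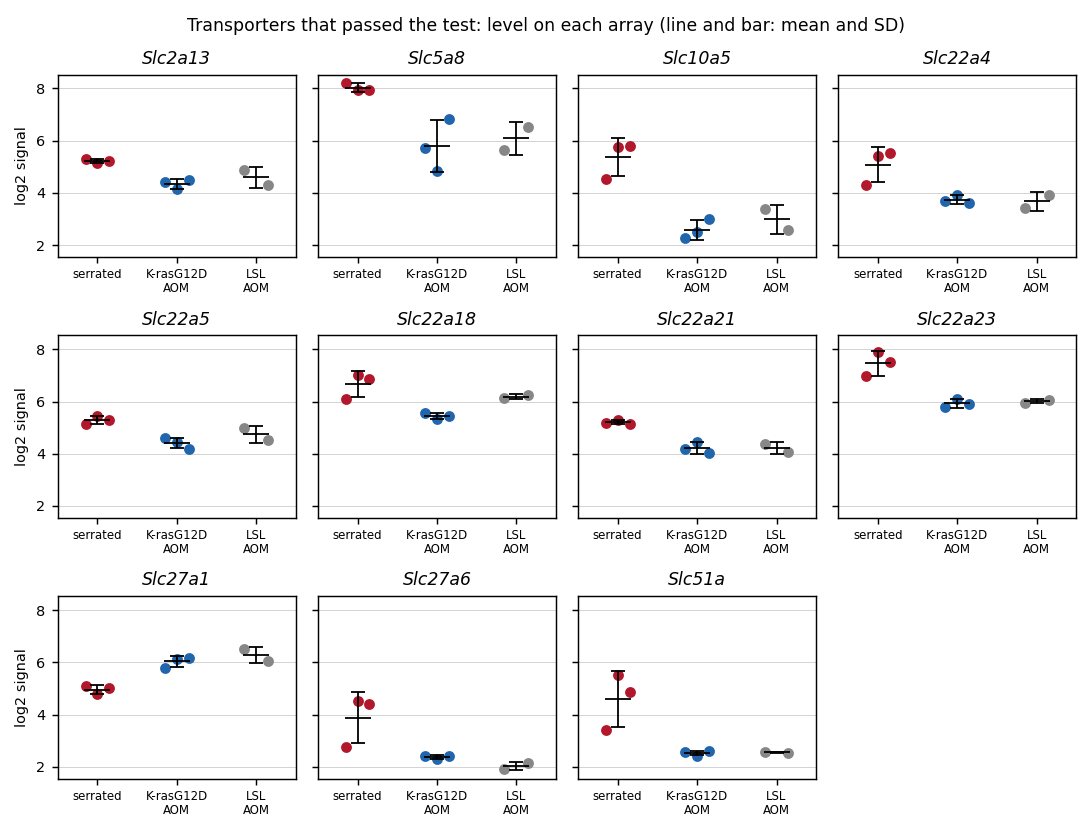
Log2 signal (vertical axis) of the 11 transporters that passed, on each array by group, with the group mean and SD as line and bar. Serrated arrays lie above the AOM arrays for 9 of the 10 that rose and below them for Slc27a1, while Slc22a18 on serrated replicate 1 (6.09) lies below both LSL arrays.

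**Figure D4:**
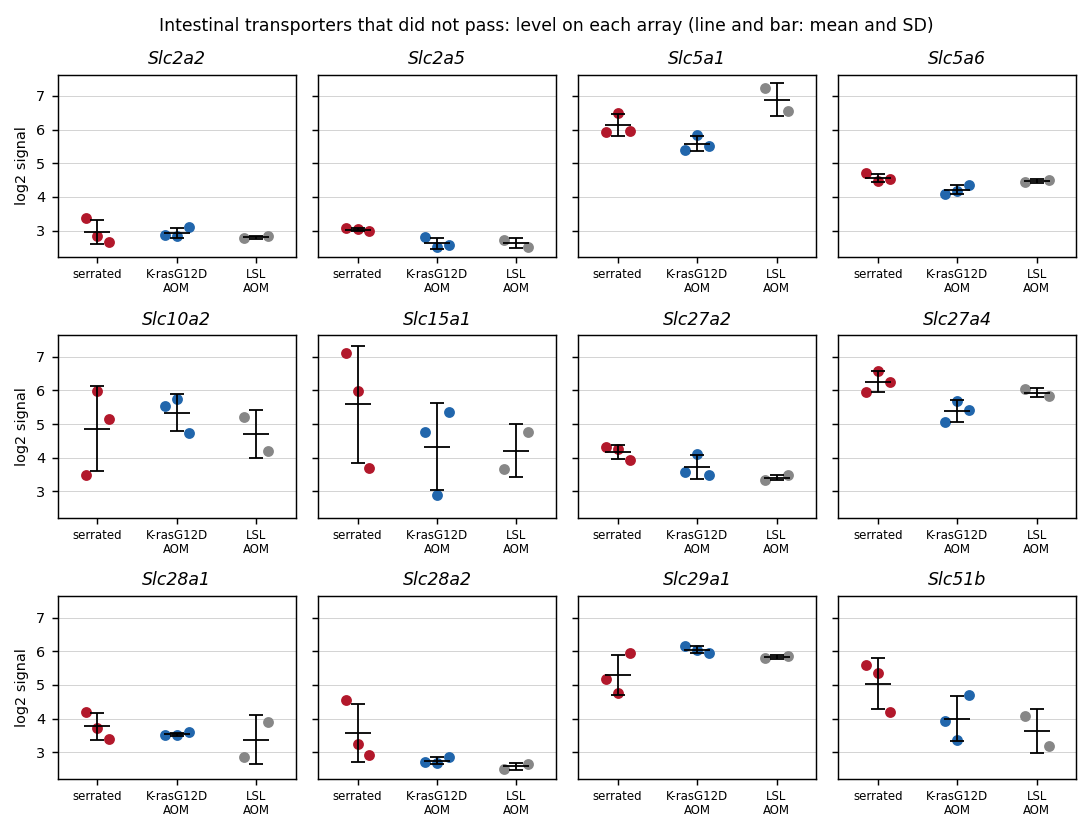
Log2 signal (vertical axis) of 12 intestinal transporters that did not pass, on each array by group, with the group mean and SD as line and bar. Slc15a1 runs from 3.70 to 7.11 among serrated tumors, and Slc10a2 from 3.47 to 5.97.

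Among genes that set or serve the absorptive epithelium, 4 of 9 measured enterocyte transcription factors rose and 0 fell. The intestinal homeobox factor Cdx2 rose by 2.56 ± 0.27 (limma adjusted p = 0.00130) and Creb3l3 by 2.31 ± 0.26 (0.00164), as did the nuclear receptors Hnf4a, by 0.99 ± 0.18 (0.0113), and Hnf4g, which was chosen after its values were seen, by 1.85 ± 0.35 (0.0146). Of 7 measured genes of the sodium gradient and of scaffolds, 2 rose, the sodium-proton exchanger Slc9a2 by 3.55 ± 0.23 (limma adjusted p = 0.000132) and the scaffold Slc9a3r1 by 1.81 ± 0.18 (0.00103). All 5 gastric surface markers rose as well, with a mean level of 7.46 to 11.3 in serrated, 3.33 to 3.40 in K-rasG12D AOM and 3.19 to 3.78 in LSL AOM tumors, and their part in the transporter differences was not tested.

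The serrated group was also set against each AOM group alone. These comparisons share the serrated arrays with each other, so their values are given side by side. Against K-rasG12D AOM tumors 9 transporters rose (12.9% of the 70, against 2.46% of all genes) and Slc27a1 fell (1.43%, against 3.99% of all genes). In both directions 6.45% of all genes passed, and an unadjusted p under 0.05 was found for 22 of the 70 members and for 21.8% of all genes. The risen were Slc2a13, Slc5a8, Slc10a5, Slc22a4, Slc22a5, Slc22a18, Slc22a21, Slc22a23 and Slc51a, by 0.87 to 2.77. Against LSL AOM tumors Slc10a5, Slc22a21, Slc22a23 and Slc51a rose (5.71%, against 2.31% of all genes) by 0.98 to 2.37, and Slc27a1 fell by 1.33 on the log2 scale (1.43%, against 3.40% of all genes). In both directions 5.71% of all genes passed, and an unadjusted p under 0.05 was found for 21 of the 70 members and for 20.3% of all genes. The median log2 difference was 0.240 against K-rasG12D AOM and 0.275 against LSL AOM tumors, with 0.0450 and 0.0443 over all genes.

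Several transporters lay near the threshold in one of these comparisons. Slc5a8 differed by 2.22 ± 0.45 against K-rasG12D AOM tumors (limma adjusted p = 0.0244) and by 1.94 ± 0.50 against LSL AOM tumors (0.0596). Slc22a4 differed by 1.34 ± 0.32 (limma adjusted p = 0.0412) and 1.41 ± 0.35 (0.0532). Slc27a6 did not pass in either, with 1.51 ± 0.41 (limma adjusted p = 0.0641) and 1.87 ± 0.46 (0.0501). Slc22a18 differed by 1.22 ± 0.25 (limma adjusted p = 0.0241) and 0.48 ± 0.27 (0.377). The number called against K-rasG12D AOM tumors was 2 without serrated replicate 2, 3 without any single K-rasG12D AOM array and 14 without serrated replicate 3. Of all genes 418, 390 to 766, and 3186 passed in these fits, against 1286 in the full fit. Against LSL AOM tumors the number called was 0 without serrated replicate 2 or LSL replicate 1, and 1 without LSL replicate 2. It was 3 without K-rasG12D replicate 1 and 9 without serrated replicate 1. Of all genes 391, 206, 176, 643 and 1785 passed in these fits, in the same order, against 1138 in the full fit. Slc51a did not pass against LSL AOM tumors without any single array other than serrated replicate 1, after quantile normalization or in a fit to the arrays of that comparison alone. Against K-rasG12D AOM tumors the Slc51a call was lost in 8 of 14 alternatives and the Slc22a4 call in 8 of 15. For both these were quantile normalization, the arrays of the comparison alone, and leaving out serrated replicate 2 or any single AOM array. Leaving out either LSL array leaves 1 LSL array, which adds nothing to the spread. Both such fits repeat the fit to the arrays of the comparison alone, so the counts of 8 hold that fit more than once. Of the calls against K-rasG12D AOM tumors, those of Slc10a5 and Slc22a23 held under every alternative run.

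Between the AOM groups, K-rasG12D against LSL, 0 of 70 transporters passed in limma, as did 0% of all genes. An unadjusted p under 0.05 was found for 5 of the 70, against 8.36% of all genes. With array weights by REML 1 passed, Slc5a1, and with the gene-by-gene weights 0, while 123 and 58 of all genes passed. The median log2 difference was 0.0418 over the 70 and 0.0100 over all genes. The glucose cotransporter Slc5a1, with 5.39, 5.85 and 5.52 in K-rasG12D AOM tumors against 7.24 and 6.54 in LSL AOM tumors, had the largest difference, -1.31 ± 0.28 (limma adjusted p = 0.269). All K-rasG12D arrays lay below both LSL arrays, as they did in 15.7% of all genes. The glucose carrier Slc2a3 stood at 3.88, 4.19 and 4.29 in K-rasG12D AOM tumors, against 3.26 and 3.41 in LSL AOM tumors, a difference of 0.79 ± 0.23 (limma adjusted p = 0.384). Slc22a18 differed by -0.74 ± 0.27 (limma adjusted p = 0.496). With 3 against 2 arrays the SE of a member ran from 0.16 to 0.98, with a median of 0.26, so a p above the threshold does not show that the groups were alike.

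**Figure D5:**
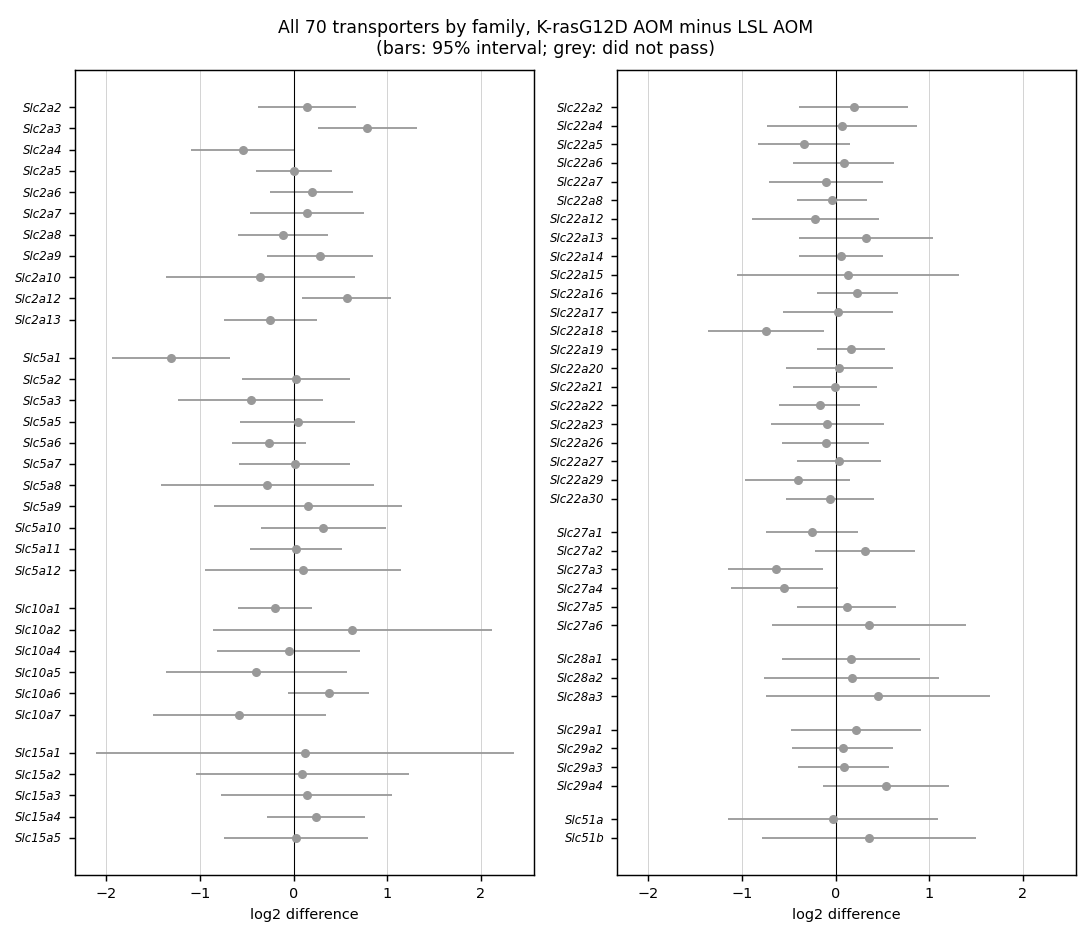
Log2 difference (horizontal axis) of each of the 70 transporters, grouped by family, for K-rasG12D AOM minus LSL AOM tumors, with 95% intervals from the limma fit. Slc5a1 lies farthest to the left, at -1.31, and Slc2a3 farthest to the right, at 0.79.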

How the data were processed

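RNA of 8 colonic tumors was measured on 1 array each. The deposited values are log2 signals of robust multi-array average (RMA), made by the authors with GCOS and RMA per the submitters' processing notes, whose versions and settings are not given in the sources used here. They run from 0.564 to 13.5 over 35557 probe sets and were not scaled further. The probe annotation gave exactly 1 symbol for 21789 probe sets, 1621 had several symbols and 12147 had none and were not tested. For 999 genes with several rows, the row of highest mean was used, which left 19938 genes. Each of the 70 members had 1 row, and all 70 matched RefSeq.

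A single limma model (limma 3.58.1, R 4.3.3), with a mean for each of the 3 groups and a shared variance, left 5 residual degrees of freedom. It gave 4 contrasts. A run on simulated data drew noise of equal spread for all arrays of a gene, so it cannot show how uneven arrays affect the calls. Errors of levels are SD, those of differences SE, and the number of arrays limits the precision. Members and lists were chosen with earlier results of these data known. Named were members that passed, the member of highest mean in each family, 15 textbook intestinal members and the 3 largest differences that did not pass in each contrast, and up to 3 genes of each other list. Alternatives were other eBayes options, array weights, a filter on dim genes, quantile normalization, the mean of rows, other groupings of arrays and leaving out each array.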

Additional observations from a re-analysis of the deposited data

How the results depend on the processing

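The number of transporters called ran from 5 to 19 for serrated against AOM tumors when single arrays were left out, against 11 in all, from 2 to 14 against K-rasG12D AOM tumors (10 in all) and from 0 to 9 against LSL AOM tumors (5 in all). Of all genes 643 to 3874, 390 to 3186 and 176 to 2530 were called in these fits, against 1871, 1286 and 1138 in the full fit. Between the AOM groups the number of transporters called stayed at 0. Array weights by REML gave 42, 40, 29 and 1 calls of transporters in these comparisons in the same order. Of all genes they called 10334, 9962, 6356 and 123, so the rise in calls was not particular to transporters. That estimate stopped before it converged, with a weight of 25.6 for serrated replicate 2. Gene-by-gene weights, chosen after seeing the data, gave 24, 25, 16 and 0 transporters, and 5761, 5682, 3670 and 58 of all genes. Against LSL AOM tumors the trend and robust options gave 8 and a fit to the 5 arrays of the comparison alone 1, Slc5a8, which was none of the 5 called in the full fit, with 332 genes called in all. The other alternatives moved no count of called transporters by over 1.5 times. Of 26 called transporters and comparisons, 6 passed under every alternative run, and 0 turned direction under any. Among differences that were not called, up to 20 of the 70 changed sign under a single alternative. The filter on dim genes left 38 members and removed 2 of the called, Slc27a6 and Slc51a, which have no value there. Quantile normalization moved the median of all genes by under 0.1 and that of the 70 to 0.115 for serrated against AOM tumors. No paired analysis was possible because the labels give the samples no shared replicate numbers.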
